A study of Arabidopsis thaliana with 4 samples.

Results

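The genes described here are those of the iron uptake machinery of the Arabidopsis root that acts under the transcription factor FIT. The set was given as 10 loci: the regulators FIT, BHLH38 and BHLH39, the proton pump gene AHA2, the ferric reductase gene FRO2, the transporter genes IRT1 and IRT2, the vacuolar transporter gene MTPA2, and the nicotianamine synthase genes NAS1 and NAS2. A probe set was counted for a locus when the annotation in the deposited workbook named that locus and no other. This gave 1 probe set each for 8 of the 10 genes, out of 22746 probe sets and 21226 genes with a probe set of their own. FRO2 and BHLH38 were not analysed here. The set was defined by locus and not by measured values, although it was proposed with results of these data known.

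Whole seedlings of Arabidopsis thaliana, Columbia 0, were compared at 5 days after growth on 0.5-strength Murashige and Skoog medium with 0.1% sucrose, and the groups differed in whether the medium held ASP; seedlings without it are called control. The submitters use the name ASP for a sulfonylpiperazine with a bromophenoxyacetyl group, and the sources used here do not state its dose. No mutant or transgene was involved, and the protocols state no change of iron supply between the groups. Each of the 2 groups had 2 Affymetrix arrays, called biological replicates in the labels, and between 15075 and 15706 probe sets were called present on an array. Values are normalized log2 signal. Precision is limited by the number of arrays, and an exact permutation test of 2 against 2 arrays cannot go below a two-sided p of 0.333.

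Arabidopsis takes up iron by reduction. The plasma membrane proton pump AHA2 acidifies the soil around the root, which brings ferric iron into solution, the reductase FRO2 turns it into ferrous iron, and IRT1 carries ferrous iron into epidermal cells. FIT, a basic helix-loop-helix protein of the root, forms dimers with BHLH38, BHLH39 and related proteins to switch on IRT1 and FRO2 when iron is short. Because IRT1 also lets in zinc and other metals, vacuolar transporters such as MTPA2 are switched on with it, and nicotianamine, made by the NAS enzymes, binds iron and other metals for transport within the plant. In RefSeq's gene table (assembly TAIR10.1), IRT1 and IRT2 are next to each other with no gene between them, and so are BHLH38 and BHLH39.

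All 8 measured genes had a lower mean log2 signal with ASP than in control, by log2 fold changes of -0.11 to -1.82. The median was -0.65, where the median over all probe sets was -0.02 and 52.5% of them were below 0. The groups did not overlap for 6 of the 8, with both ASP arrays below both control arrays, and this held for 20.9% of all probe sets. In limma without a trend 0 of the 8 passed a Benjamini-Hochberg adjusted p under 0.05, and 0% of all probe sets did, with a smallest adjusted p of 0.265. At an unadjusted p under 0.05 the same fit had 4 of the 8 as lower, against 4.09% of all probe sets, and 2 of the 8 were at least 2-fold lower, against 7.27%. An alternative fit, called the intensity trend here, lets limma's prior variance depend on how bright a probe set is. It called 1 of the 8, IRT1, as lower and 0 as higher, where 0.167% of all probe sets were called lower and 0.149% higher, and at an unadjusted p under 0.05 it had 5 of the 8 as lower, against 4.78%. These counts are descriptions of a chosen set of genes.

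**Figure D1:**
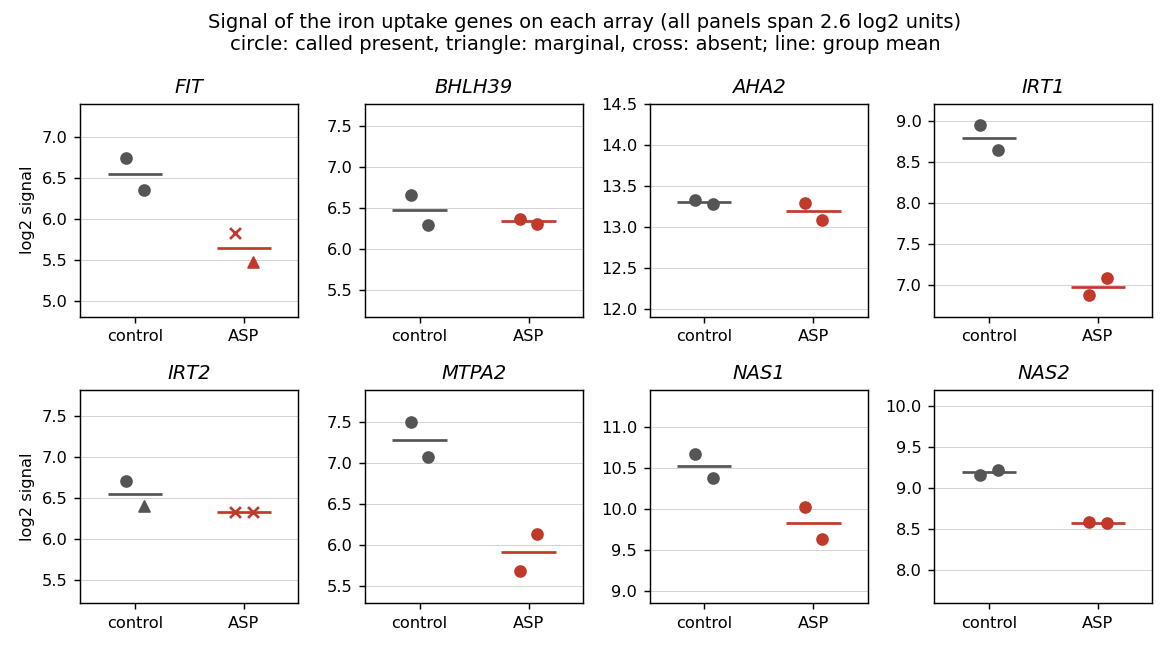
Log2 signal (y axis) of each of the 8 measured genes on the 2 control and the 2 ASP arrays, with the group mean as a line and the detection call as the symbol. Every panel has the same height in log2 units. IRT1 and MTPA2 have the widest gaps between the groups, while the groups overlap for AHA2 and BHLH39.

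FIT (AT2G28160, named FRU in the workbook), the central activator, had a log2 signal of 6.75 and 6.36 in control and of 5.83 and 5.47 with ASP. Both ASP arrays were below both control arrays, with a gap of 0.53 between the nearest arrays of the groups. The probe set was called present on both control arrays, absent on the first ASP array and marginal on the second, so FIT was measured close to background with ASP. The means were 6.55 ± 0.28 in control and 5.65 ± 0.25 with ASP (SD, n = 2 each), a 1.87-fold lower level with a log2 fold change of -0.90 ± 0.24 (SE). This did not pass in limma, with an adjusted p of 0.609 without the trend and 0.527 with it.

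BHLH39 (AT3G56980), a dimer partner of FIT whose transcript is itself known to respond to iron shortage, was measured as present on all 4 arrays. Its log2 signal was 6.66 and 6.29 in control and 6.37 and 6.31 with ASP. The ASP values lay between the control values, so the groups overlapped. The log2 fold change was -0.13 ± 0.20 (SE), with a 95% interval of -0.73 to 0.46 and an adjusted p of 0.899 in limma without the trend. The interval includes falls about as large as the log2 fold changes of NAS1 and NAS2 given further on, so these arrays do not show that BHLH39 was unaffected. Without control replicate 1 the log2 fold change was 0.05.

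AHA2 (AT4G30190), the main proton pump gene of the root response, had a log2 signal of 13.33 and 13.28 in control and 13.30 and 13.09 with ASP. The first ASP array was within the control range and the second below it. The log2 fold change was -0.11 ± 0.16 (SE), and its 95% interval ran from -0.58 to 0.36 in limma without the trend and from -0.38 to 0.17 with it. The adjusted p was 0.899 and 0.846. Of the other 10 genes of the AHA proton pump family 5 were lower, with log2 fold changes from -1.04 to 1.01, a median of 0.01 and 0 past the adjusted p in limma with or without the trend. Of the 10, 3 were called present on no array, both ends of that range among them. AHA1, the other main pump gene of most tissues, was at 0.04, AHA11 at 0.10 and AHA5 at -0.13. AHA7, a pump gene with root hair expression, was called absent on both ASP arrays. Its measured fold, 1.52-fold lower, is a bound that does not include sampling error, and its adjusted p was 0.661 in limma with the trend.

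IRT1 (AT4G19690), the main transporter for ferrous iron at the root surface, had a log2 signal of 8.95 and 8.64 in control and 6.87 and 7.08 with ASP, and was called present on all 4 arrays. The nearest arrays of the groups were 1.56 apart, where the control arrays differed by 0.31 and the ASP arrays by 0.20. The log2 fold change was -1.82 ± 0.20 (SE), or 3.53-fold lower, with a 95% interval of -2.41 to -1.23 in limma without the trend. Among the 14732 probe sets present on both control arrays, it was the 35th lowest by log2 fold change, and 0.957% of these probe sets were at least 2-fold lower. That filter used only the control arrays, where IRT1 was higher. Over all 22746 probe sets IRT1 was the 580th lowest, and 7.27% of them were at least 2-fold lower. The adjusted p was 0.352 without the trend and 0.0177 with it. The call with the trend was lost whichever array was left out, in fits with fewer samples. Leaving out control replicate 1 gave an adjusted p of 0.173 in limma, control replicate 2 gave 0.0726, ASP replicate 1 gave 0.183 and ASP replicate 2 gave 0.119. The log2 fold change itself ran only from -1.98 to -1.67 when each array was left out. The authors' deposited table, made from 3 arrays a group of which 1 is not used here, lists IRT1 as 3.77-fold lower with an unadjusted p of 0.000909.

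IRT2 (AT4G19680), its neighbour, also codes for an iron transporter of the root epidermis, found mainly on vesicles inside the cell. Its log2 signal was 6.70 and 6.40 in control and 6.33 and 6.33 with ASP. Both ASP arrays were below both control arrays, by as little as 0.07. The probe set was called present on the first control array, marginal on the second and absent on both ASP arrays. Its measured fold, 1.16-fold lower, is therefore a bound, which does not include sampling error. The log2 fold change was -0.22 ± 0.18 (SE), with an adjusted p of 0.829 in limma without the trend. Its 95% interval ran from -0.75 to 0.31 in that fit and from -0.98 to 0.55 with the trend. Both include no change. IRT1's log2 fold change was 1.60 below the measured value of IRT2. This difference was not tested, and the value of IRT2 is uncertain. IRT2 was near background in both groups, which limits how large a difference could be detected.

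MTPA2 (AT3G58810), which moves zinc into the vacuole of root cells, had the second largest difference of the set. Its log2 signal was 7.50 and 7.08 in control and 5.69 and 6.14 with ASP, with present calls throughout. The nearest arrays of the groups were 0.94 apart, and the arrays within a group differed by 0.42 and 0.44. The log2 fold change was -1.37 ± 0.27 (SE), or 2.59-fold lower, with a 95% interval of -2.18 to -0.56 and an adjusted p of 0.526 in limma without the trend and 0.225 with it. MTPA2 was the 67th lowest by log2 fold change of the 14732 probe sets present on both control arrays. That filter used only the control arrays, where MTPA2 was higher. Over all 22746 probe sets it was the 1058th lowest, and 7.27% of them were at least 2-fold lower. The authors' deposited table lists it as 2.22-fold lower with an unadjusted p of 0.0113, and the other 6 measured genes are not in that table, which lists differences of at least 2-fold.

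NAS1 and NAS2 code for enzymes that make nicotianamine. NAS2 (AT5G56080) had a log2 signal of 9.16 and 9.22 in control and 8.58 and 8.57 with ASP, the closest agreement within groups among the lower genes. NAS1 (AT5G04950) had 10.67 and 10.38 in control and 10.03 and 9.64 with ASP. For both genes each ASP array lay below each control array, and the log2 fold changes of -0.69 ± 0.23 for NAS1 and -0.62 ± 0.13 for NAS2 (SE) differed by 0.07, less than either SE. That corresponds to 1.61-fold and 1.53-fold lower levels. The adjusted p was 0.677 and 0.547 in limma without the trend, and 0.195 and 0.161 with it. NAS4, another synthase gene, was at -0.62, and NAS3, picked after its value was seen, at 0.02. The probe sets of all 4 synthase genes named 1 gene each, but the genes are close relatives and cross-hybridisation between them was not tested.

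**Figure D2:**
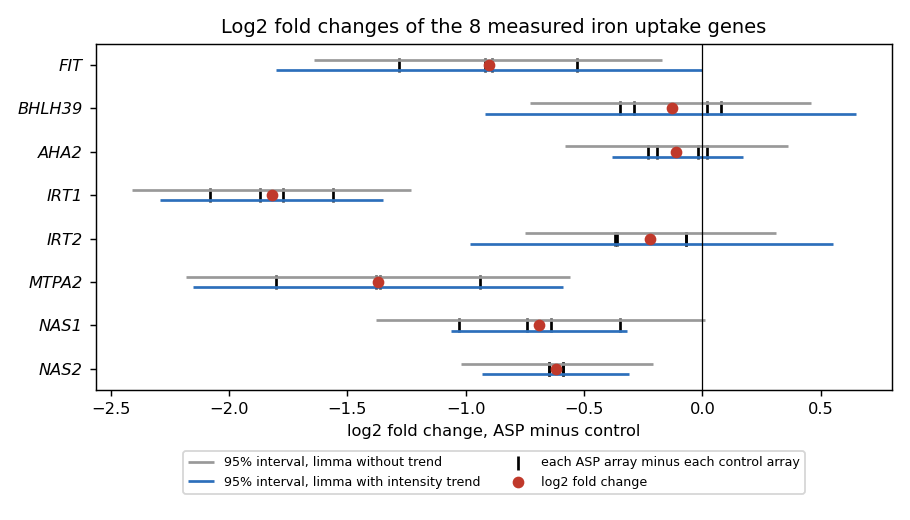
Log2 fold change (x axis, ASP minus control) of the 8 measured genes as a red point, with the 95% intervals of limma without and with the intensity trend as lines and the 4 differences between single ASP and control arrays as black ticks. For IRT1 and MTPA2 all 4 ticks lie at or below -0.94, and for AHA2 and BHLH39 they lie on both sides of 0.

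Outside this set, 48 of 52 listed iron genes had a probe set of their own, and 0 of them passed in limma with or without the trend. Of the 48, 27 were lower and 21 higher, with a median log2 fold change of -0.05. Below an unadjusted p of 0.05 without the trend, 5 were lower, beside the 4.09% of all probe sets, and 3 higher, beside 3.33%. With the trend 9 were lower, beside 4.78%, and 3 higher, beside 4.69%. Of the 48, 10 were called present on no array. Among these were MYB10 and BHLH25, counted as lower in both fits, and BHLH18, counted as higher without the trend. The list of other FIT-dependent and root iron response genes had 7 of 14 lower and a median of -0.07. Within it the kelch-repeat gene AT3G07720 was at -0.22, NRAMP1, a manganese and iron transporter, at -0.33, F6'H1 (AT3G13610), which makes coumarins that mobilise iron, at -0.15, and the 14-3-3 protein gene GRF11 at 0.33. The widest log2 fold changes in this list, -3.58 and 1.81, came from probe sets present on fewer than 2 arrays, as did 6 of its 14.

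Among 18 other regulators, 9 were lower and 9 higher, with a median that rounds to 0. EIL1, an ethylene-response factor known to bind FIT, was 1.51-fold higher, with a log2 signal of 10.20 and 10.11 in control and 10.78 and 10.72 with ASP. Its groups did not overlap, and its adjusted p was 0.572 in limma without the trend and 0.0847 with it. ZAT12 (RHL41), a zinc-finger protein known to bind FIT and hold it inactive, was 1.54-fold higher, with 7.99 and 7.66 in control and 8.45 on both ASP arrays. The adjusted p of ZAT12 was 0.643 in limma without the trend and 0.322 with it, so neither EIL1 nor ZAT12 passed. PYE, a repressor in the parallel iron response of the root, was 1.53-fold lower. AT1G47400, listed here as IMA1 and annotated in the workbook as a hypothetical protein, was 1.64-fold lower. Neither PYE nor AT1G47400 passed in limma, with adjusted p of 0.534 and 0.433 with the trend.

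Of 16 genes of iron distribution and storage 11 were lower, with a median of -0.08. FRD3, which loads citrate into the xylem and so keeps iron mobile, was 1.61-fold lower, with 8.85 and 9.05 in control and 8.19 and 8.33 with ASP, and an adjusted p of 0.177 in limma with the trend. OPT3, needed for signalling of iron status from shoot to root, was at -0.37. The ferritin genes, which code for the iron store of plastids, had FER3 at -0.25, and of those named after their values were seen, FER1 was at -0.01, FER4 at 0.03 and FER2 at -0.21.

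Of 15 measured relatives of the IRT, FRO and MTP families 14 were lower and 1, MTP1, was higher, with a median of -0.36 and 0 past the adjusted p in limma with or without the trend. Groups did not overlap for 11 of the lower ones, beside 20.9% of all probe sets. Among these 11, ZIP7, ZIP9 and ZIP10 were called present on no array and ZIP4 on 1. The zinc transporter genes ZIP1, ZIP3 and ZIP5 were at -0.52, -0.43 and -0.36 and IRT3 at -0.25. Present calls on 2 or more arrays were given to 10 of the 15, and 9 of these 10 were lower, with a median of -0.30.

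**Figure D3:**
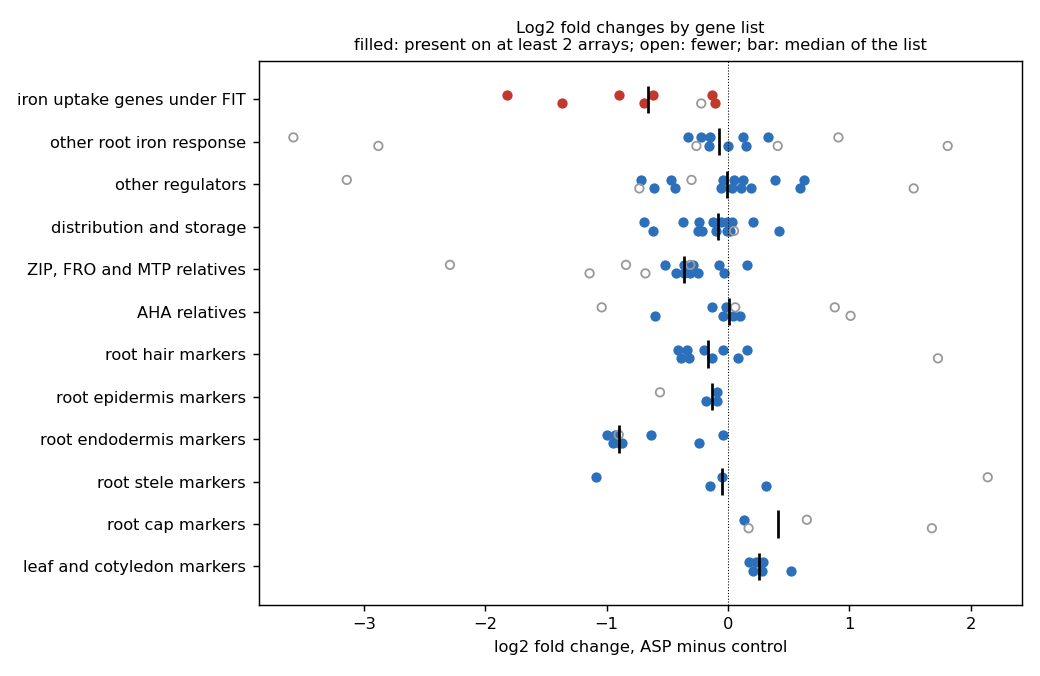
Log2 fold change (x axis, ASP minus control) of each measured gene in the set of 8 iron uptake genes (red), in the other iron lists, the relatives and the cell type markers (blue), with the median of each list as a bar. Open points are genes called present on fewer than 2 arrays. The medians of the iron uptake genes (-0.65), the endodermis markers (-0.90) and the IRT, FRO and MTP relatives (-0.36) lie furthest below 0.

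The genes of this set act mainly in roots, and in RNA of whole seedlings fewer cells of a type and less RNA per cell cannot be told apart. Marker genes were therefore set beside them. Of 10 root hair markers 7 were lower, with a median of -0.16, and their summed log2 signal was 10.64 to 11.23 in control and 10.74 to 10.76 with ASP. COBL9, the first of that list, was at -0.32. Of the 4 other root epidermis markers all were lower, with a median of -0.13 and a summed log2 signal of 9.18 to 9.25 in control and 9.04 to 9.15 with ASP. GL2, the defining gene of hairless epidermal cells, was called absent on all 4 arrays. All 9 endodermis markers were lower, with a median of -0.90 and a summed log2 signal of 11.49 to 12.13 in control and 11.11 to 11.35 with ASP, and CASP1 was at -0.87. Of 5 stele markers 3 were lower, with log2 fold changes from -1.09 to 2.14 (the latter from a gene present on 1 array), a median of -0.05 and a summed log2 signal of 10.70 to 10.81 against 10.66 to 10.70. The lowest of them, SKOR, a potassium channel gene picked after its values were seen, was present on all 4 arrays at 7.39 and 7.91 in control and 6.99 and 6.13 with ASP, and the authors' deposited table lists it as 2.05-fold lower with an unadjusted p of 0.0428. All 4 root cap markers were higher, with a median of 0.41, but 3 of them were present on fewer than 2 arrays, and their summed log2 signal was 6.77 to 7.0 against 7.01 to 7.62. All 6 measured leaf and cotyledon markers, of 8 listed, were higher, with a median of 0.25 and a summed log2 signal of 16.42 to 16.43 against 16.58 to 16.78. No marker passed in limma with or without the trend. The log2 fold changes of IRT1 and MTPA2 were below those of all measured markers in these lists, and those of FIT, NAS1 and NAS2 were within the range of the endodermis markers, -1.0 to -0.04. The part of root cell content in the results was not tested.

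The control arrays also differed from each other in these genes. Control replicate 1 had the higher signal for 7 of the 8 iron uptake genes, with a median difference of 0.30, and for 9 of 10 root hair markers (0.53) and 8 of 9 endodermis markers (0.78). It was higher in 47.8% of the 14261 probe sets with a present call on every array. The ASP arrays split 5 to 3 in the iron uptake genes, with a median difference of 0.03. ASP replicate 1 was higher for 4 of 10 root hair markers (-0.05) and, as in control, for 8 of 9 endodermis markers (0.41). Without control replicate 1 the median log2 fold change of the 8 genes was -0.59 and 7 were lower. Without control replicate 2 it was -0.71 and all 8 were lower.

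The genes whose signal over the 4 arrays was nearest to that of IRT1 were looked up among 14072 other probe sets of 1 gene that were present on both control arrays, by the root mean square distance after subtracting the control mean. The nearest 5 were NLM1 (AT4G19030), annotated as a water channel that also carries arsenite, at a distance of 0.116, PYD4 (AT3G08860) at 0.217, the peroxidase gene AT3G01190 at 0.219, AT2G28780, annotated as a hypothetical protein, at 0.241, and AGP13 (AT4G26320), an arabinogalactan protein gene, at 0.245. NLM1 had a log2 signal of 7.80 and 7.18 in control and 5.65 and 5.75 with ASP. Only the control arrays had to be present for a gene to enter: PYD4 and AGP13 were called absent on both ASP arrays and NLM1 on ASP replicate 1, so these signals were not above background, and the distances made from them are uncertain. Within the set, MTPA2 came nearest to IRT1, at 0.331 and 21st of all candidates, followed by FIT (0.680, 141st), NAS1 (0.829, 303rd) and NAS2 (0.864, 375th). BHLH39 and AHA2 were at 1.196 (3668th) and 1.225 (4480th). IRT2 was not a candidate, since it was not called present on both control arrays. A likeness over 4 arrays rests mostly on the difference between the groups.

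**Figure D4:**
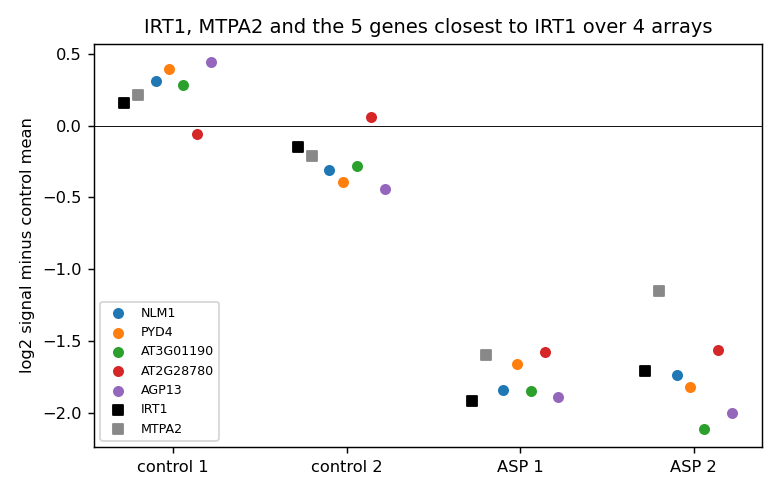
Log2 signal minus the control mean (y axis) on each of the 4 arrays for IRT1, MTPA2 and the 5 genes nearest to IRT1. All 7 signals lie below the control mean by more than 1 log2 unit on both ASP arrays, although PYD4 and AGP13 were called absent on both of them and NLM1 on ASP 1, and the control arrays of AGP13 and PYD4 are further apart than those of IRT1.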

How the data were processed

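Per the file headers, the authors deposited normalized log2 signal for each probe set of each array, together with present, marginal or absent calls. How the arrays were normalized and which software was used is not given in the sources used here. Labelling was done with the GeneChip 3′ IVT PLUS kit, per the labels' protocols. Log2 values of the deposited series matrix equalled these to within 5e-09. The authors' deposited table of differences gives, per the file headers, an unadjusted p-value and a fold change, which is the ratio of mean linear signals, from 3 arrays a group. There were 4 columns of values for individual arrays that match no sample by name, and they were left out.

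After 64 Affymetrix controls were removed, limma 3.58.1 under R 4.3.3 (lmFit and eBayes, no trend, two-sided, no block) was run on 22746 probe sets, and p-values were adjusted by Benjamini-Hochberg over all of them. The residual and prior degrees of freedom were 2 and 1.34, and the trend raised the latter to 6.06. P-values set the difference between the groups against the spread of arrays within groups, moderated by a prior drawn from all probe sets. They cover only these 4 samples. For a gene with absent calls on every array of the dimmer group, the fold is a bound, which does not include sampling error. The dim level was taken on each array as the gene's own signal or, if higher, the dimmest present probe set (3.60 to 4.00). A gene was represented by its brightest probe set. All members are named, and from each list of other iron genes or relatives the 4 with the smallest p among those present on at least 2 arrays. The members and lists were chosen with earlier results of these data known. Alternatives were the trend, a robust prior, an unmoderated test, filters on dim probe sets, quantile normalization, median centring, a floor of 50 on linear values, the series matrix, a replicate block and leaving out each array.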

Additional observations from a re-analysis of the deposited data

How the results depend on the processing

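Under 18 alternatives, the log2 fold changes of IRT1, MTPA2, FIT, NAS1, NAS2 and IRT2 stayed below 0, that of AHA2 reached -0.00, and that of BHLH39 ran from -0.32 to 0.05 when an array was left out and was 0.05 without control replicate 1, with or without the trend. IRT1 ran from -1.98 to -1.67 and MTPA2 from -1.59 to -1.15. No member passed an adjusted p of 0.05 in any alternative except 1, IRT1, with the intensity trend on all 4 arrays; its adjusted p ran from 0.0177 to 0.713, and was 0.0582 without the dimmest 30% of probe sets and 0.0684 over those present on at least 2 arrays. Leaving out each array gave 7 to 8 members lower and a median of -0.75 to -0.55. Over all probe sets 0 were called without the trend, 72 with it (9 to 37 of these fits' calls when an array was left out: 22 and 37 without control replicates 1 and 2, 11 and 9 without ASP replicates 1 and 2), 18 without the dimmest 30%, 19 over those present on at least 2 arrays and 1 with the floor; the cause was not tested. The other 48 iron genes kept a median of -0.09 to -0.04 when an array was left out, with 27 to 29 lower. With the replicate number as a block, 0 probe sets were called and IRT1 had an adjusted p of 0.713 in limma. The difference between replicates 1 and 2 in control correlated with that in ASP at -0.024 over 14261 probe sets. This does not show whether samples of the same number were paired, since it can miss a shared difference in few genes. The submitters' descriptions give replicate 1 the letter A and replicate 2 the letter C in both groups. Replicate 1 was higher for 8 of 9 endodermis markers in both groups. For root hair markers it was higher in 9 of 10 in control and in 4 of 10 with ASP. A mean over a gene's probe sets was not run, since each member has 1. IRT2 was left out of the fit over probe sets present on at least 2 arrays.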
